A study of Rattus norvegicus with 56 samples.

Results

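The genes described here encode the subunits of the proteasome and the proteins that assemble, cap or inhibit it, measured in the dorsal striatum of 56 rats. They were taken as the probe sets of the array whose only gene symbol starts with Psm, 1 of the letters a to g and a digit, other than Psmb8 and Psmb9, and whose log2 signal averaged above 5. The brightest probe set stood for each gene. This gave 44 genes of 18625 probe sets tested, and all 44 passed the filter of the test. Because an earlier analysis of these samples had pointed to 1 of its probe sets, all 3 probe sets of Psmd14 were kept, which makes 46 probe sets. By role the 44 genes were 14 of the core, 17 of the cap, 11 accessory genes and 2, Psmc3ip and Psme3ip1, that fit the letters and encode proteins named for binding a subunit, not subunits. Psmb6 and Psme3 had only probe sets that carry several symbols and were not analysed here.

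The proteasome is the barrel-shaped protease that degrades proteins tagged with ubiquitin. Its core is a stack of rings, in which alpha subunits (Psma genes) form the gate and beta subunits (Psmb genes) hold the cutting sites. The cap sits on the end of the core: ATPases of its base (Psmc genes) unfold the substrate, scaffold and receptor subunits hold it, and the lid (further Psmd genes) includes Psmd14, the enzyme that cuts ubiquitin off. In neurons the proteasome clears misfolded proteins, alpha-synuclein among its substrates, and turns over synaptic proteins.

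All rats were males of the Crl:OFA (Sprague Dawley) background, and each array held the RNA of 1 rat. Lesioned rats had lost nigral neurons on both sides after an AAV vector made them overexpress alpha-synuclein, and sham rats carried the same vector with GFP, so that every rat had been injected with virus. From week 5 after surgery they were given L-dopa methyl ester at 50 mg/kg together with the decarboxylase inhibitor benserazide, or saline, for 3 weeks. Place conditioning followed, in 40 min sessions with pramipexole, a D2/D3 dopamine agonist, at 2 mg/kg or with saline in every session, and the striatum was taken 24 or 48 h after the last dose. The 8 combinations held 7 rats each, and the p-values measure the spread between rats. The lesion, as labelled, lies in the midbrain, so nigral cell bodies were not in the sample. The series asks how reward by pramipexole relates to transcription after a lesion and L-dopa.

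Each array had a median log2 signal of 5.62 to 5.82. The 9 medium spiny neuron genes on the array, the defining markers of striatum, averaged 9.66 (Drd2) to 12.20 (Penk). The 6 cortical markers ran from 1.45 (Tbr1) over a median of 7.20 to 12.18 (Sv2b), and the 5 of choroid plexus from 2.07 (Kl) over 5.21 to 6.41 (Ttr), so the markers of neighbouring tissue were not all low. Sample numbers matter for what follows. An earlier analysis of the values, not the labels, placed a step between number 37 and number 38. Numbers 1 to 37 hold all 28 lesioned rats, 7 sham rats that received both drugs and 2 of the sham group on L-dopa and saline. The other 5 of that last group and the 14 sham rats treated with saline lie at 38 to 56. Lesion and array number thus coincide except in those 2 sham rats on L-dopa and saline and the 7 sham rats on both drugs. In such bulk tissue, fewer cells of a type and less RNA per cell cannot be told apart.

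Over the 44 genes the mean log2 signal had a median of 8.93. Because the rule kept the brightest probe set of each gene, this level and its spread are a description and are not set against other probe sets. Signals of different probe sets are not to scale with each other, so they do not give the ratio of transcripts. The SD between rats of the same group had a median of 0.112 log2 units over the 44 genes, and the distance from the lowest to the highest of the 8 group means one of 0.137.

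Within the core, the alpha ring ran from Psma3 at 8.36 to Psma6 at 10.79, and the beta ring from Psmb10, a subunit of the immune form of the core, at 7.63 to Psmb4, a structural beta subunit, at 10.72. The SD inside groups of the 14 core genes lay between 0.059 for Psmb4 and 0.192 for Psmb10. Among the 6 ATPases, Psmc4 averaged 8.98 and Psmc2 10.75. Of the scaffold and receptor subunits, Psmd1 averaged 8.55 and Psmd2, the other large scaffold, 9.69. The lid ran from Psmd3 at 7.74 to Psmd6 at 10.08. Psmd7, the lid partner of Psmd14, had the smallest SD inside groups of all 44 genes, 0.052. The core assembly chaperones ran from Psmg2 at 7.35 to Psmg4 at 8.58 and the cap assembly chaperones from Psmd9 at 6.35 to Psmd5 at 8.37. Of the other caps, Psme4 (PA200, a nuclear activator) averaged 7.42 and Psme1 (PA28 alpha, an interferon-inducible activator) 8.34. Psme1 had the largest SD inside groups of the 44, 0.284, and the core chaperone Psmg3 came next at 0.269. The SD of Psme1 includes rat 2, at 10.19, where the highest of the other rats was at 8.77. Psmc3ip, a meiotic recombination factor, averaged 6.06 and Psme3ip1 8.11. Just outside the limit of 5, the nearest probe sets were second ones for Psmb5 at 4.89 and Psmd9 at 4.76. Just inside it were a Psmd14 probe set at 5.53 and Psmc3ip.

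Promoter sequences were at hand for 40 of the 44 genes (RefSeq, build GRCr8, 250 bases before to 50 after the start). Psma7, Psmd6, Psmd12 and Psmd14 were not in the table. On either strand, 15 of the 40 (37.5%) held the ETS-like run CCGGAAG, beside 18.2% of 8491 promoters of tested genes and 9.22% of all 27457. The letters CGCANGCG, the middle of an NRF1-like site, stood in 7 (17.5%), beside 18% and 8.23%. The antioxidant response element core TGACNNNGC, which NFE2L1 and NFE2L2 can read, stood in 7 (17.5%), beside 14.3% and 12.2%. CCAAT stood in 20 (50%), beside 37.7% of both sets, and the AP-1 run TGAGTCA in 1 (2.5%), beside 3.22% and 4.53%. The proteasome promoters were not richer in G and C than those of tested genes, with a median of 56.5% against 61.3%. A match is a description of the letters only. The 250 bases before the start are shown for 3 core genes that the results turn on: Psmb4, the 1 gene whose brightest probe set passed a test, Psma2, whose signal varied most closely with the rest of the core, and Psmb5, the chymotrypsin-like cutting subunit. Capitals mark CCGGAAG read on the other strand in Psmb4, 22 bases before the start, CGCANGCG in Psma2, 156 bases before it, and TGACNNNGC in Psmb5, 60 bases before it.
Psmb4, chr2:185134562-185134811, minus strand: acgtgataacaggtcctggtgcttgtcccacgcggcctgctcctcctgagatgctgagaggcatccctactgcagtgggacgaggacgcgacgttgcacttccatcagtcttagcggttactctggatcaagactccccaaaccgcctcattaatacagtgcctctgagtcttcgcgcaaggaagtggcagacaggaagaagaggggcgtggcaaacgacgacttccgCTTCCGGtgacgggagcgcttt
Psma2, chr17:55260442-55260691, minus strand: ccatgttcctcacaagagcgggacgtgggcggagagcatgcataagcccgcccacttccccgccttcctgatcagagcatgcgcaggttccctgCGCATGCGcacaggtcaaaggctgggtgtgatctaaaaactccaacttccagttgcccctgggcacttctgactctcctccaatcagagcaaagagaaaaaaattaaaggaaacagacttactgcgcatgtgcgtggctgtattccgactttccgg
Psmb5, chr15:32047380-32047629, minus strand: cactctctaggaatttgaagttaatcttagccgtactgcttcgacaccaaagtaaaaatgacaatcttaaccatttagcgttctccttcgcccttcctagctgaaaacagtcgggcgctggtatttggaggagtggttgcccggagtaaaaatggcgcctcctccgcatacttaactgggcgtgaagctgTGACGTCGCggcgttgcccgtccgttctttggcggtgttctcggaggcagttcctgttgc

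Averaged into scores, core and cap signals overlapped between all 8 groups. A score, the mean of a list's log2 signals after each gene was centred on its mean over the 56 arrays, was taken for the 14 core and the 17 cap genes. The core score had its lowest group mean in sham rats given L-dopa and saline, -0.047 ± 0.052 (SD, n = 7), with a lowest rat at -0.108, a median of -0.045 and a highest at 0.028. Its highest group mean was in lesioned rats given both drugs, 0.029 ± 0.059 (SD, n = 7), from -0.088 over a median of 0.038 to 0.087. Undrugged sham rats averaged 0.007 ± 0.073 (SD, n = 7), from -0.097 over 0.003 to 0.107, and undrugged lesioned rats 0.028 ± 0.090 (SD, n = 7), from -0.069 over 0.012 to 0.162. All 8 groups overlapped, and the SD inside the groups, 0.052 to 0.096, was of the size of the whole range of group means.

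The cap score was tighter still. Its group means ran from -0.026 ± 0.032 in sham rats given L-dopa and saline to 0.013 ± 0.016 in undrugged sham rats (SD, n = 7 each). The first of these groups spanned -0.062 to 0.015 with a median of -0.032, and the second -0.013 to 0.033 with a median of 0.010, so they overlapped. Means of both scores in the array sets lay within 1 SD of each other. The core score averaged 0.004 ± 0.073 (SD, n = 37) at 1 to 37 and -0.008 ± 0.065 (n = 19) at 38 to 56, and the cap score -0.001 ± 0.040 and 0.003 ± 0.029.

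**Figure D1:**
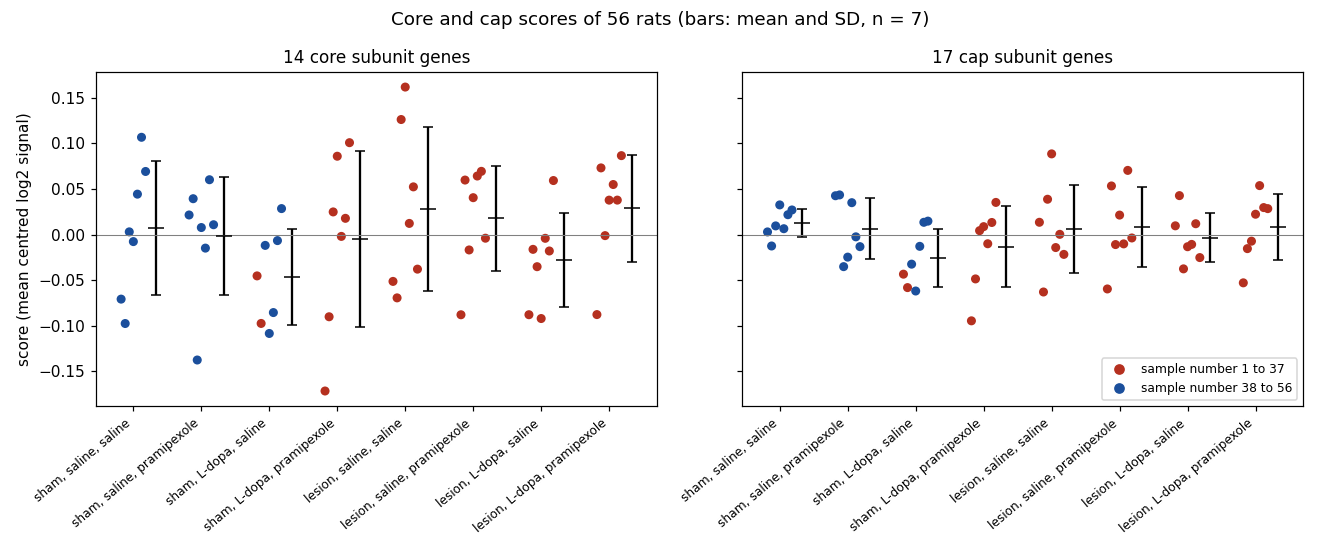
Core score (left, 14 genes) and cap score (right, 17 genes) of each rat by group, in centred log2 units, with the group mean and SD beside the points (n = 7) and colours for sample numbers 1 to 37 and 38 to 56. Every group spans 0, and the core group means run from -0.047 to 0.029 and the cap group means from -0.026 to 0.013.

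Lesioned and sham rats (28 against 28) were compared first, the contrast closest to alpha-synuclein and nigral loss. Of the 44 genes 1 rose, Psmb4, at a Benjamini-Hochberg adjusted p under 0.05 in limma, and none fell. Over all probe sets tested, 2.22% were called higher and 2.85% lower, 5.07% in all. A count of 1 in 44 genes is too small to set apart from these shares. At an unadjusted p under 0.05 there were 7 of 44 (15.9%), beside 19.7% of all tested. The difference was positive in 29 of the 44 genes, 10 of 14 in the core and 11 of 17 in the cap, with a median of 0.014, beside -0.009 over all tested. In this fit, which held no term for the array set, the 95% confidence intervals of single genes reached over the core from 0.925-fold to 1.11-fold. Over the cap they reached from 0.902-fold to 1.11-fold. They do not bound an effect of the lesion apart from the array set. With the array set as a block the median over the core was 0.060, where it was 0.023 without.

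Psmb4 ran in undrugged lesioned rats from 10.67 over a median of 10.74 to 10.88, and in undrugged sham rats from 10.64 over 10.73 to 10.76. In lesioned rats given L-dopa and saline it ran from 10.66 over 10.68 to 10.80, and in their sham controls from 10.59 over 10.66 to 10.73. Lesioned rats given saline and pramipexole ran from 10.70 over 10.77 to 10.85 and their sham controls from 10.60 over 10.66 to 10.71. With both drugs, lesioned rats ran from 10.67 over 10.74 to 10.85 and sham rats from 10.64 over 10.76 to 10.82. The ranges of lesioned and sham rats overlapped in all 4 pairs, least under saline and pramipexole. Over 28 against 28 rats the means were 10.75 and 10.69, a difference of 0.060 ± 0.019 (SE), or 1.04-fold, with an adjusted p of 0.0457 by limma. In 22 of 28 lesioned rats Psmb4 lay above the mean of the matched sham group. With the array set as a block in the fit the difference was 0.012 ± 0.043 (adjusted p = 0.998 by limma), and within arrays 1 to 37 it was 0.015 ± 0.037 (adjusted p = 0.990). Leaving out any 1 of 27 rats also ended the call, with adjusted p between 0.0323 and 0.0724 over the 56 fits; quantile normalization, no filter and a covariate for RNA quality ended it as well. Of 46 marker genes of 8 cell types and regions, 3 were called for the lesion, beside 5.07% of all tested. These were Penk of medium spiny neurons (0.113 ± 0.035), Acta2 of mural cells (-0.229 ± 0.046) and Sv2b, listed for cortex (-0.235 ± 0.068). The estimate was positive in 4 of 9 genes of medium spiny neurons (median -0.003), unlike that of Penk. It was positive in 2 of 7 genes of endothelial and mural cells (median -0.060) and in 2 of 5 of cortex (median -0.075). With the array set as a block, 0 probe sets were called for the lesion. The part of these markers in the result was not tested.

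The 3 highest estimates for the lesion, all above that of Psmb4, were those of genes outside core and cap. Psme4 differed by 0.132 ± 0.045 (SE, adjusted p = 0.0780), Psme1 by 0.126 ± 0.074 (adjusted p = 0.354) and Psme2, the PA28 beta partner of Psme1, by 0.073 ± 0.048 (adjusted p = 0.424); none passed limma's test. In Psme4 the other probe sets gave 0.030 ± 0.053 and 0.229 ± 0.102, neither of which passed. Undrugged lesioned rats ran in Psme4 from 7.11 over 7.47 to 7.83 and undrugged sham rats from 7.05 over 7.23 to 7.48, with overlap. The lowest estimates were those of Psmc3ip, -0.098 ± 0.068, Psmg3, -0.085 ± 0.070, and the scaffold subunit Psmd1, -0.073 ± 0.038, with adjusted p of 0.453, 0.543 and 0.282 by limma. The spread of Psmd1 differed between the array sets. Its SD was 0.167 at 1 to 37 (n = 37), with a lowest rat of 7.98, sham rat 32. At 38 to 56 it was 0.042 (n = 19), with a lowest rat of 8.55.

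L-dopa was compared with saline in 28 against 28 rats. None of the 44 genes was called by limma, beside 0.215% of all tested, and 9 had an unadjusted p under 0.05 (20.5%, beside 10.9% of all tested). With the array set as a block this was 1 of 44, and over all 18625 tested the count fell as well, from 2022 to 1012. With a covariate for RNA quality it was 3 of 44, for which the share of all tested was not taken. The estimates leaned to lower signals: 34 of 44 were negative, 10 of 14 in the core and 14 of 17 in the cap, with a median of -0.020 beside 0.002 over all tested. Cell type markers leaned as well, although none of the 46 was called: the estimate was positive in 1 of 9 genes of medium spiny neurons (median -0.040), in 7 of 7 of microglia (median 0.133) and in 4 of 5 of cortex (median 0.266). Averaged over each list, the 8 group means ran from 10.40 to 10.58 for medium spiny neurons, from 7.27 to 7.76 for microglia and from 6.87 to 7.35 for cortex. Their part in the result was not tested. The core intervals reached from 0.889-fold to 1.11-fold. The 3 lowest estimates were Psmg3 at -0.209 ± 0.070 (adjusted p = 0.238), Psmc3ip at -0.136 ± 0.068 (adjusted p = 0.466) and Psmd9 at -0.099 ± 0.041 (adjusted p = 0.365). The 3 highest were Psme1 at 0.065 ± 0.074, Psmd11, a lid subunit, at 0.064 ± 0.023 (adjusted p = 0.283) and Psmd3 at 0.055 ± 0.039. Psmd11 has a further probe set of nearly the same brightness, which gave -0.018 ± 0.019, and the signals of these probe sets did not vary together between rats (r = -0.059, n = 56).

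The lean moved with a measure of RNA quality. The 3' minus 5' signal, the log2 signal at the 3' end of beta-actin and GAPDH less that at their 5' end, is larger where labelled RNA is shorter. Hexokinase, a control of the same kind, was not part of it. Inside groups the 3' minus 5' signal of hexokinase went the other way with the core score (r = 0.343), and that of all 3 controls gave r = -0.168. The covariate results below hold for the beta-actin and GAPDH measure only. It averaged 0.870 ± 0.101 (SD, n = 7) in undrugged lesioned rats, 1.062 ± 0.155 in undrugged sham rats and 1.109 ± 0.087 and 1.083 ± 0.116 in the lesioned and sham rats given L-dopa and saline. With this measure as a covariate, 27 of 44 estimates for L-dopa were positive and the median was 0.003, and in the core 12 of 14 were positive. For the lesion the covariate left 22 of 44 positive, with a median of 0.001. Over 28 against 28 rats the lean under L-dopa thus turned with it. In sham rats conditioned with saline it did not: 35 of 44 estimates for L-dopa were negative, with a median of -0.064, and with the covariate 36 of 44, with a median of -0.054. The part of the measure in the result was otherwise not tested. With the array set as a block, 16 of 44 estimates for L-dopa were positive, and 36 of 44 for the lesion.

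Psmg3, which had the lowest estimate for L-dopa, did not vary evenly between rats. Over all rats its values fell into a lower and an upper set with a gap between them. The lower set reached up to 7.60 in rat 9 (lesioned, L-dopa and saline). The upper set began at 7.85 in rat 21 (lesioned, saline and pramipexole). In sham rats given saline throughout it ran from 7.39 over 8.07 to 8.49, and in sham rats given L-dopa and saline from 7.43 over 7.55 to 8.01. Lesioned rats given saline throughout ran from 7.36 over 7.91 to 8.08, and those given L-dopa and saline from 7.28 over 7.45 to 7.60. All of these ranges overlapped. Of these groups, only the lesioned rats given L-dopa and saline lay wholly in the lower set. The estimates for Psmg3 thus depend on how many rats lay in each set and need not be a graded shift. What separates the sets was not tested.

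Pramipexole was compared with saline conditioning in 28 against 28 rats. None of the 44 genes was called by limma, beside 0.0376% of all tested, and 1 had an unadjusted p under 0.05 (2.27%, beside 5.08% of all tested), Psmg2, at -0.069 ± 0.030 (adjusted p = 0.910). Estimates were positive in 32 of 44 genes, with a median of 0.013 beside 0.002 over all tested. Psmc3ip (0.108 ± 0.068), Psme1 (0.106 ± 0.074) and Psme2 (0.090 ± 0.048) were highest, and Psmg2, Psmg3 (-0.052 ± 0.070) and Psme3ip1 (-0.037 ± 0.033) lowest. Cap intervals reached from 0.940-fold to 1.07-fold, the narrowest of the 3 factors for core or cap.

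**Figure D2:**
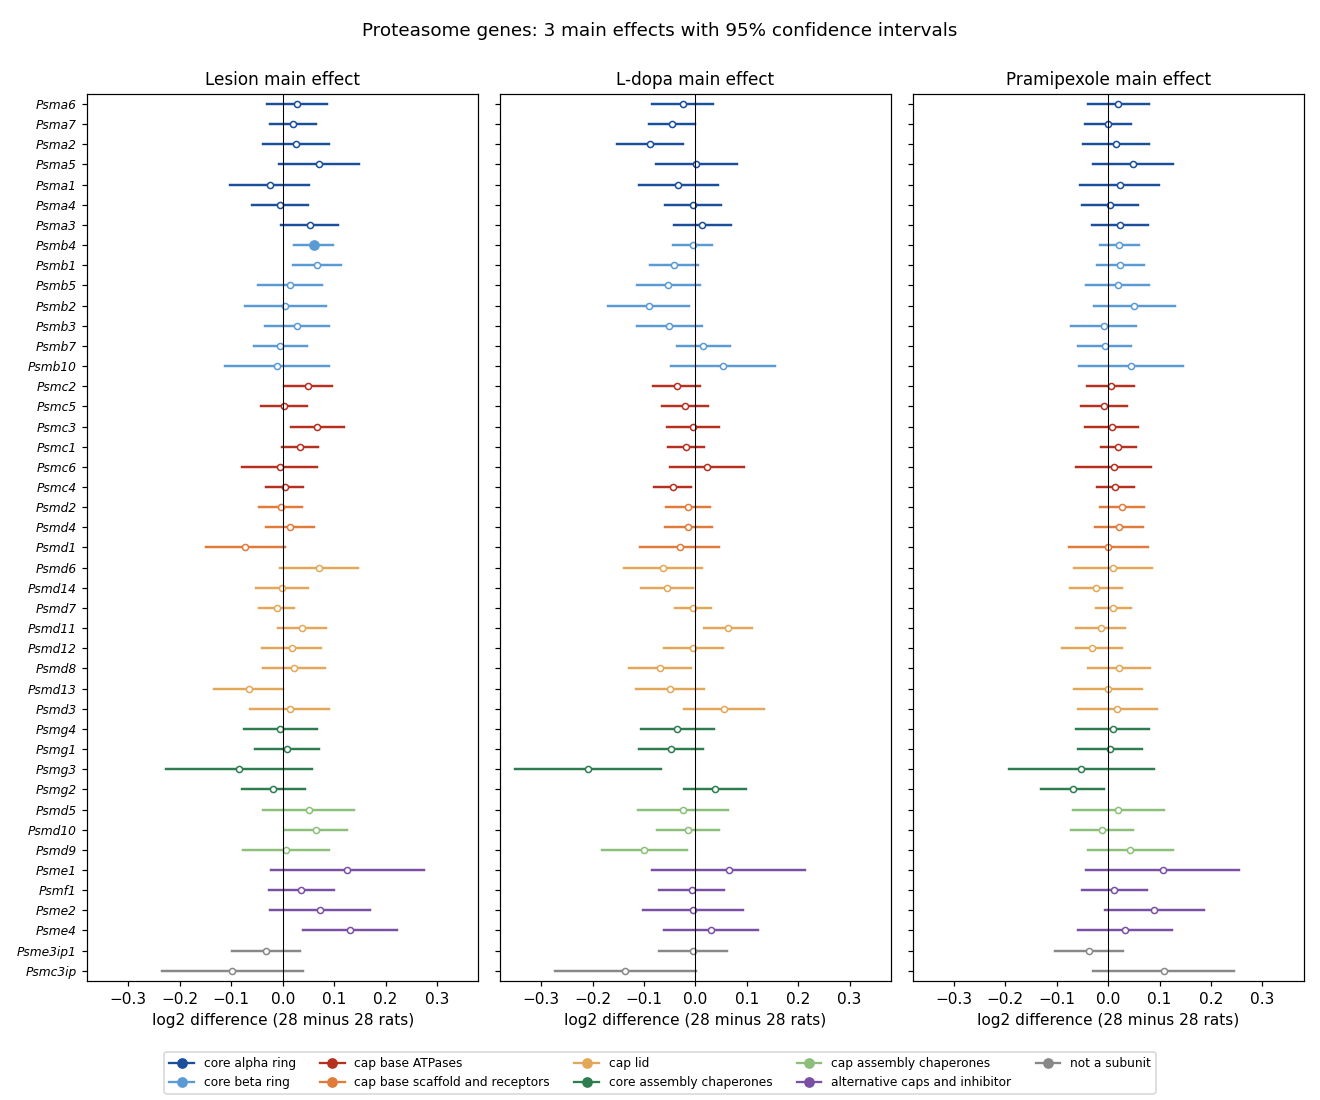
Difference in log2 signal of each of the 44 genes for lesion, L-dopa and pramipexole (28 minus 28 rats), with 95% confidence intervals from limma and colours for roles; filled points passed an adjusted p of 0.05. Psmb4 under the lesion is the 1 filled point, and the widest intervals are those of Psmg3, Psme1 (with rat 2, which lay far above the others, included) and Psmc3ip.

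In the 12 comparisons of 7 against 7 rats and the 3 interactions of the factors, no brightest probe set was called by limma. Over all tested, the 4 lesion comparisons called 1.07% in undrugged rats, 0.789% under pramipexole, 0.183% under L-dopa and 0% under both drugs. L-dopa called 0.0161% and 0% in lesioned rats conditioned with saline and pramipexole, and 0.00537% and 0.166% in sham rats. Pramipexole called 0.0161% and 0% in lesioned rats treated with L-dopa and saline, and 0.043% and 0% in sham rats. The interaction of lesion with L-dopa called 0.0107% and the other interactions 0%. Between 0 and 6 of the 44 genes (0 to 13.6%) had an unadjusted p under 0.05, beside 5.14% to 13.702% of all tested. The smallest adjusted p was that of Psmb1, a beta-ring subunit without a cutting site of its own, for the lesion in rats given saline and pramipexole. There the lesioned rats ran from 10.54 over 10.59 to 10.67 and the sham rats from 10.35 over 10.42 to 10.52, with no overlap. The difference was 0.162 ± 0.046 (SE, adjusted p = 0.0752 by limma), where 0.789% of all tested were called. With the 3' minus 5' covariate it was 0.145 ± 0.037 and passed (adjusted p = 0.0302), and with array weights Psmb1 was called too. These lesioned rats lie at 1 to 37 and all of these sham rats at 38 to 56, so lesion and array set cannot be told apart in this pair. Under L-dopa in sham rats conditioned with saline, where 35 of 44 estimates were negative (median over all tested 0.002), 6 (13.6%) had an unadjusted p under 0.05, beside 7.83% of all tested. With the array set as a block, which acts on the divided group of this comparison, 34 of 44 were negative and 1 had an unadjusted p under 0.05. Over all 18625 tested the block lowered that count from 1458 to 1237. The interaction of L-dopa with pramipexole was positive in 33 of 44, with a median of 0.055 beside -0.008. It shares its samples with the preceding comparison.

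The 3 probe sets of Psmd14 gave different results. Psmd14 encodes the lid enzyme that removes ubiquitin chains from substrates before they enter the core. Probe set 1383429_at averaged 9.63, 1394082_at 8.63 and 1386073_at 5.53, the dimmest of all 46 probe sets described. The first and second varied together between rats of a group (r = 0.60, n = 56), and the dim set less so with either (r = 0.141 with the first and 0.327 with the second).

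The dim probe set 1386073_at ran in undrugged lesioned rats from 5.65 over 5.82 to 6.15, and in undrugged sham rats from 4.72 over 5.06 to 5.30. In lesioned rats given saline and pramipexole it ran from 5.34 over 5.74 to 6.09, and in their sham controls from 4.89 over 5.23 to 5.32. These pairs did not overlap. In lesioned rats given L-dopa and saline it ran from 5.57 over 5.82 to 5.87, and in their sham controls from 4.87 over 5.27 to 5.82. With both drugs, lesioned rats ran from 5.40 over 5.85 to 6.02 and sham rats from 5.62 over 5.68 to 5.94. Sham rats given both drugs thus lay with the lesioned rats, and the remaining sham groups lay lower.

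The values of the dim set were known before these comparisons, and the step in sample number was placed with it among others. The p-values of this paragraph are thus a description and no independent test. By the labelled groups the dim set rose with the lesion by 0.493 ± 0.057 (SE), or 1.41-fold, with an adjusted p of 1.7e-08 by limma. Of 28 lesioned rats, 25 lay above the mean of their matched controls. In undrugged rats the difference was 0.772 ± 0.114 (adjusted p = 2.1e-05), where 0.671% of all tested were called higher. In rats given saline and pramipexole it was 0.627 ± 0.114 (adjusted p = 0.0012), where 0.403% were called higher. In rats given L-dopa and saline it was 0.563 ± 0.114 (adjusted p = 0.0121), where 0.123% were called higher, and leaving out rat 39 or rat 40 ended this call. With both drugs it was 0.012 ± 0.114 (adjusted p = 0.992), where 0% were called. L-dopa in sham rats conditioned with pramipexole also gave 0.601 ± 0.114 (adjusted p = 0.0027), where 0.15% were called higher. No interaction was called for this probe set, with adjusted p of 0.276, 0.629 and 0.599.

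Every one of these calls compared rats at 1 to 37 with a group that lay wholly or mostly at 38 to 56, and the comparison with both drugs, in which both groups lie at 1 to 37, gave none. The dim set averaged 5.76 ± 0.19 (SD, n = 37) at 1 to 37, with a lowest rat of 5.34, and 5.08 ± 0.19 (SD, n = 19) at 38 to 56, with a highest of 5.34; to 4 decimals, 5.3373 against 5.3371, the sets did not overlap. Of all tested, 0.0805% (15 of 18625) separated the sets in this way, and of the 46 probe sets described this was the 1 that did. The position of the step was found with this probe set among others, so this is a description. Inside the 1 divided group, sham rats given L-dopa and saline, rats 36 and 37 gave 5.44 and 5.82 and rats 38 to 42 gave 5.27, 4.90, 4.87, 4.90 and 5.34. The higher numbers were lower by 0.58 on average than the lower ones in a group with the same labels. With the array set as a block the lesion difference was 0.102 ± 0.121 (adjusted p = 0.998 by limma) and within arrays 1 to 37 it was 0.081 ± 0.093 (adjusted p = 0.965); all 5 calls were lost. In the block fit the step is set by those 2 and 5 rats, which makes the errors wide.

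The brighter Psmd14 probe sets showed no such step. At 1 to 37 and at 38 to 56, 1383429_at averaged 9.62 ± 0.09 and 9.65 ± 0.08, and 1394082_at 8.63 ± 0.20 and 8.62 ± 0.18 (SD, n = 37 and 19). Their lesion differences were -0.002 ± 0.025 and 0.056 ± 0.048, with adjusted p of 0.979 and 0.560. For L-dopa the second gave -0.155 ± 0.048 (adjusted p = 0.185), and -0.017 with the RNA covariate.

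**Figure D3:**
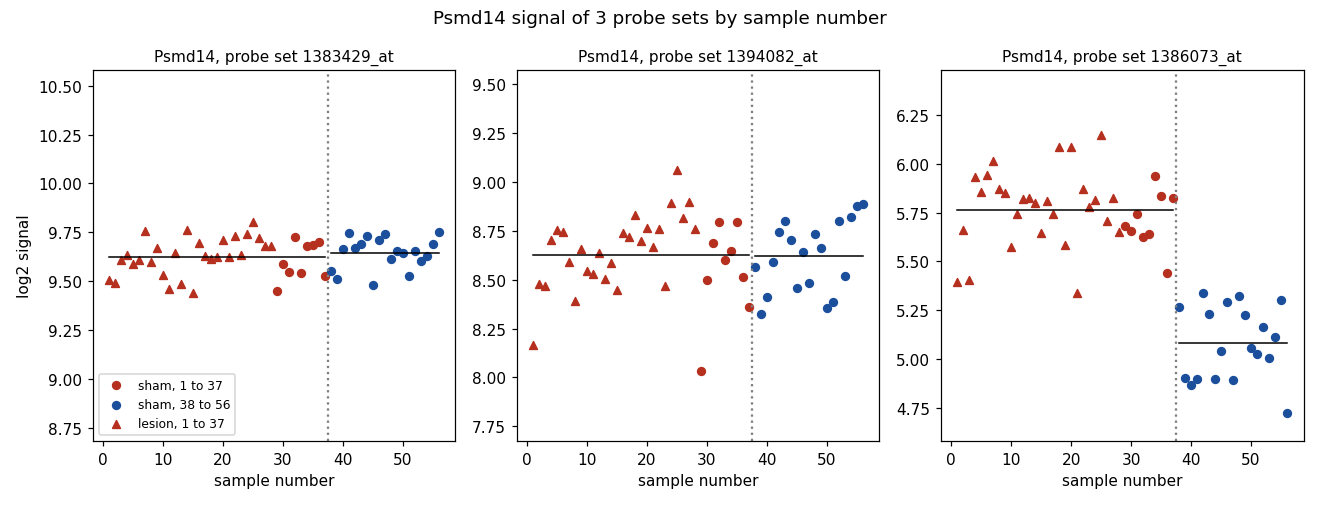
Log2 signal of the 3 Psmd14 probe sets by sample number, with triangles for lesioned and circles for sham rats, a dotted line between 37 and 38 and black lines at the mean of each side. Only the right panel steps, from 5.76 to 5.08, and the sham rats left of the line lie with the lesioned ones.

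Between rats with the same labels, the other proteasome genes differed less between the array sets. Inside the divided group the higher minus the lower numbers had a median of 0.042 over the 44 genes, with 32 positive (72.7%, beside 51.3% of all tested). The highest were Psmg3 at 0.329 ± 0.217, Psmf1, which encodes the proteasome inhibitor PI31, at 0.191 ± 0.096 and Psmd9 at 0.166 ± 0.128. The lowest were Psmd5, a cap assembly chaperone, at -0.164 ± 0.137, Psmd10, the chaperone gankyrin, at -0.145 ± 0.093 and Psmg2 at -0.092 ± 0.095 (SE). None of the 44 exceeded 2 SE, beside 3.89% of all tested.

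Inside groups the core genes varied together. After each gene was centred on its group means, the 91 pairs of core genes had a median Pearson's r of 0.388 over the 56 rats, with 82 pairs positive. The mean over pairs of all tested was 0.003. That mean covers probe sets of all levels, not the brightest of each gene, and is no matched background. Pairs of an alpha with a beta gene were as close, with a median of 0.422. The 136 cap pairs had a median of 0.101 and 86 positive, and the 238 pairs of core with cap 0.175. Psma2 had the highest median r with the core, 0.639, and Psmd6 of the lid came next with 0.638. These were also the closest pair of all, r = 0.876 (Spearman's rho 0.831). All of these values come from the same arrays and share their depth of labelling.

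Psmd3 of the lid and the ATPase Psmc5 had median r with the core of -0.284 and -0.257, and the lowest r of any pair was that of Psmc5 with Psmg4, -0.615. Psmb10, Psma3 and Psma4 stood apart inside the core, as the plot of correlations shows. The median over core pairs was 0.420 at sample numbers 1 to 37 (n = 37) and 0.361 at 38 to 56 (n = 19).

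**Figure D4:**
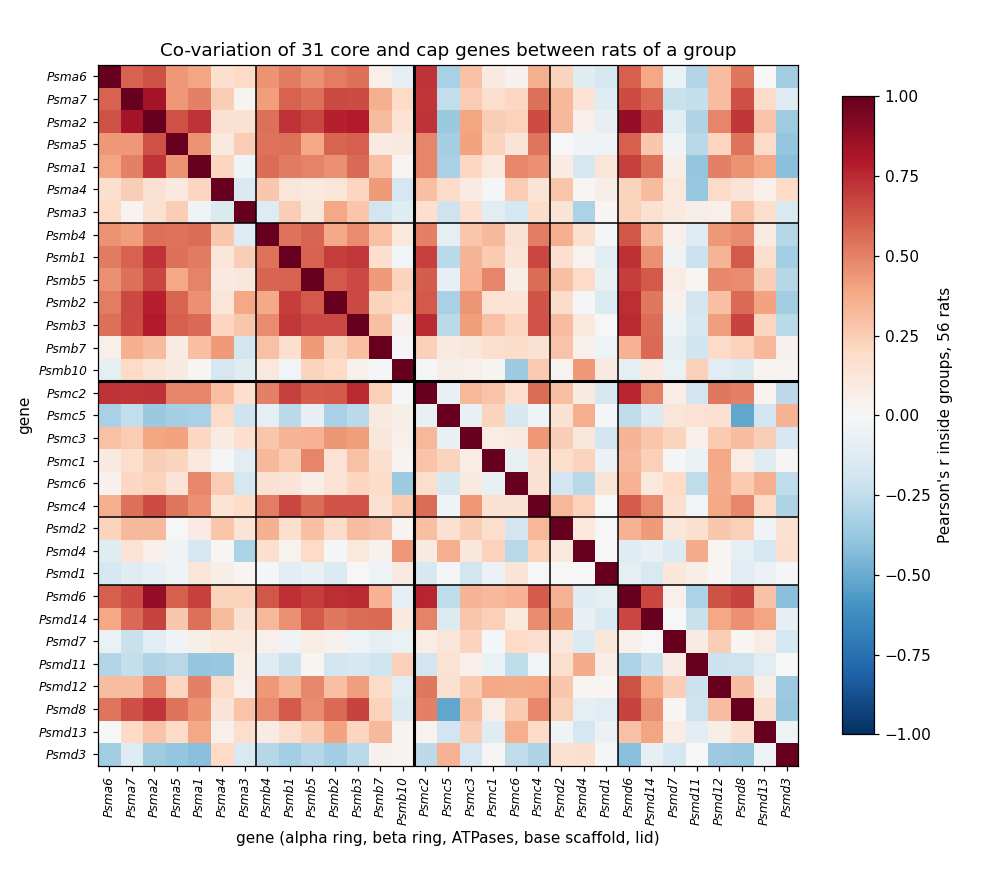
Pearson's r inside groups (56 rats) for every pair of the 14 core and 17 cap genes, red for positive and blue for negative, ordered by role with lines between roles. The core block is mostly red, with a median of 0.388, and Psmd6, Psmc2 and Psmc4 of the cap join it, whereas Psmc5, Psmd11 and Psmd3 are blue against it.

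The shared variation moved with the 3' minus 5' signal, too. Between core score and cap score r was 0.711 and rho 0.648 inside groups (n = 56), and r was 0.661 without the 2 rats farthest from the median. The core score and the 3' minus 5' signal had r = -0.764 and rho = -0.673, with r = -0.758 without the 2 farthest rats. Within arrays 1 to 37 that r was -0.762 (n = 37) and within 38 to 56 it was -0.795 (n = 19). The cap score had r = -0.493 and rho = -0.372. Over single genes r with this measure had a median of -0.255 and was negative in 37 of 44, beside a median of 0.033 over all tested, and it was lowest for Psma2 (-0.773) and Psmd6 (-0.753) and highest for Psmd3 (0.455). The relation depended on the control gene: with the core score r was -0.747 for beta-actin, -0.593 for GAPDH and 0.343 for hexokinase. For the mean of all 3 controls r was -0.168 and rho -0.084. After the measure was taken out of every gene, the core pairs kept a median r of 0.217 with 76 of 91 positive, and the cap pairs 0.096.

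**Figure D5:**
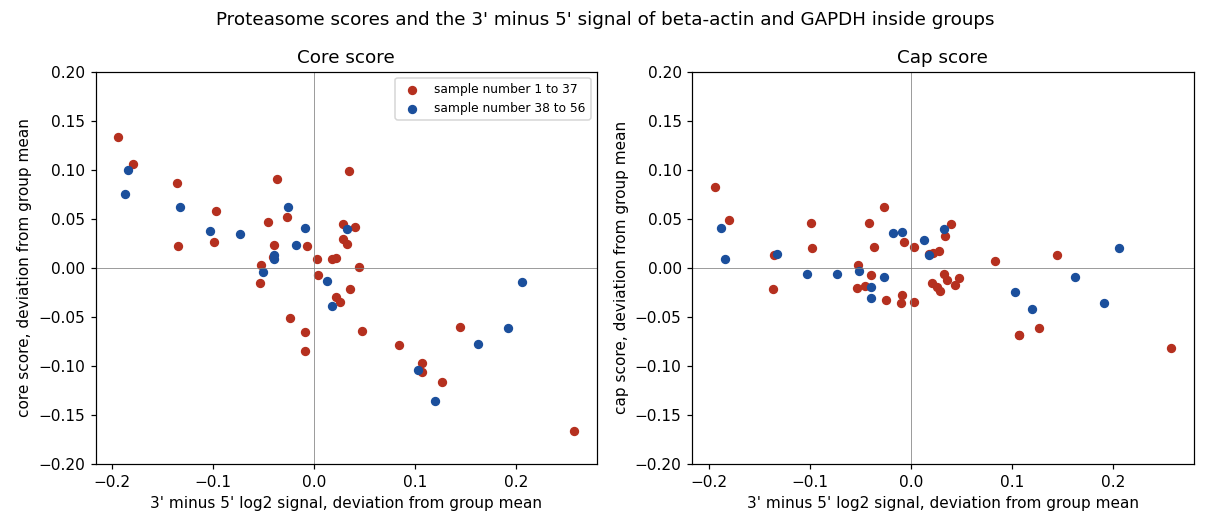
Core score (left) and cap score (right) against the 3' minus 5' log2 signal of beta-actin and GAPDH, each as the deviation from the group mean, for 56 rats coloured by sample number. The core score is lower where the measure is higher in both colours (r = -0.764), and the cap score has r = -0.493.

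The interferon-inducible genes Psme1, Psme2, Psmb9 and Psmb10 were each highest in the same rat. In rat 2, a lesioned rat given both drugs, Psme1 reached 10.19 and Psme2 8.95, and the highest of the other 55 rats were at 8.77 and 8.07. Psmb9, an interferon-inducible beta subunit outside the rule, was at 8.85 there, and the next rat at 6.72. Inside groups Psme1 and Psme2 had r = 0.786 (rho 0.458, n = 56), and without rat 2 r was 0.391 (n = 55). Psme1 and Psmb9 had r = 0.925, and 0.715 without rat 2. Psmb10, whose product replaces a standard beta subunit in the same immune form, was highest in rat 2 as well, at 8.24 against 8.04 in the next rat. Its r was 0.304 with Psme1 and 0.380 with Psme2, and without rat 2 it was -0.009 and 0.162. With Psmb8, another immune subunit outside the rule, r was 0.454 with rat 2 included (n = 56), and the value without rat 2 was not taken. Leaving out rat 2 lowered the lesion estimate of Psme1 from 0.126 to 0.062 ± 0.042, its pramipexole estimate from 0.106 to 0.043 ± 0.042 and its L-dopa estimate from 0.065 to 0.001 ± 0.042, with adjusted p of 0.437, 0.994 and 0.995 by limma.

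Of the genes that work with the proteasome, few were called. None of the 14 tested proteasome partners, such as shuttle receptors and bound deubiquitinases, was called by limma for any of the 3 factors. Nor was any of the 6 regulators of proteasome genes, the 4 genes that supply ubiquitin or the 6 of the VCP segregase. Of these 30 genes, 4 had an unadjusted p under 0.05 for the lesion, 4 for L-dopa and 1 for pramipexole, where the shares of all tested were 19.7%, 10.9% and 5.08%. The regulators included Nfe2l1, the factor that raises proteasome genes when the proteasome is blocked, which averaged 9.11 and gave 0.105 ± 0.031 for L-dopa (adjusted p = 0.137) and 0.049 ± 0.042 with the array block. Of 9 genes of the COP9 signalosome, a relative of the lid, 1 rose with the lesion, where 2.22% of all tested were called higher. This was Cops3, by 0.131 ± 0.023 (SE), with an adjusted p of 1.4e-04 by limma. With the array block its estimate was 0.118 ± 0.054 and the adjusted p 0.998, where 0 probe sets were called over the whole array. Of the 9 genes, 3 had an unadjusted p under 0.05 for the lesion, 3 for L-dopa and 0 for pramipexole. For the lesion in rats given saline and pramipexole 1 of the 9 was called higher, beside 0.403% of all tested.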

How the data were processed

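Total RNA of 56 rats was measured on Affymetrix Rat230_2 arrays, 1 array per rat, after labelling with a 3' IVT express kit, per the labels' protocols. The deposited values are log2 signals that the authors made with MAS5, per the submitters' processing notes. Its version and target are not given in the sources used here. Raised to the power of 2, each array has a trimmed mean (2% off each end) of 150.042 to 150.046. Values were used as deposited, with no pseudocount; the number of arrays limits the precision.

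Groups came from the labels. The 31099 probe sets were filtered at the 40th percentile of mean log2 signal (4.99), which left 18625. A single limma model (version 3.58.1, R 4.3.3) held a mean for each of the 8 groups and used all 56 arrays. From it 18 two-sided contrasts were read: 3 main effects, 12 comparisons of 7 against 7 rats and 3 interactions. Calls needed an adjusted p under 0.05 (Benjamini-Hochberg, over all probe sets tested). Errors are SE of the fit unless named SD, and intervals are 95%. The code was tested on simulated data.

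Named genes are every Psmd14 probe set, every member called, the 3 highest and 3 lowest in each main effect and in the difference between array sets inside the divided group, and the brightest and dimmest of each role. Psmb1, Psmb5, Psma2, Psmd6, Psmd7, Psmc5 and the pairs in the correlations were named after their values were seen. The members, gene lists and tests were chosen with earlier results of these data known. Correlations inside groups are descriptions without a test. Motifs were searched on both strands in RefSeq promoters (GRCr8) with Python 3.11.15; no protein sequences were used here. Alternatives were an array-set block, arrays 1 to 37 or 38 to 56 alone, a filter raised to the 60th percentile or dropped, quantile normalization, the 3' minus 5' signal as covariate, array weights, adding 16 to the unlogged signal, an intensity trend with a robust prior, the mean of all probe sets of a gene, and leaving out each rat. Leaving out rat 2, single control genes, the mean of all 3 controls and taking the 3' minus 5' signal out of the correlations were chosen after seeing the data.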

Additional observations from a re-analysis of the deposited data

Results flagged for a closer look

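Among 28 series of values (26 named probe sets and the core and cap scores) in 8 groups of 7 rats, 14 of 224 tests found 1 rat far from the others of its group, with a gap to the nearest rat above Dixon's 95% critical value for 7 values. Chance flags about 1 in 20. The widest gaps were those of rat 2, a lesioned rat given both drugs, with a log2 signal of 10.1916 for Psme1 where the next rat had 8.48, and of 8.9496 for Psme2 where the next had 8.01. In the same group rat 3 had 8.045 for Psmg3, a value that rats of other groups also reached, such as rat 16 at 8.05 and rat 22 at 8.08.

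Rat 29, a sham rat given both drugs, was low for Psmd14 1394082_at at 8.0321 and for Psmd6 at 9.625. Rat 32 of that group was low for Psmd1 at 7.9801. Rat 45, a sham rat given saline and pramipexole, was low for the core score at -0.137486 and for Psmd6 at 9.8721. Among lesioned rats given saline and pramipexole, rat 17 was low for Psmd1 at 8.2118 and rat 15 for Psmd14 1383429_at at 9.4406. Psmd5 was high in rat 14 (lesioned, L-dopa and saline) at 8.7249 and in rat 26 (lesioned, saline throughout) at 8.8304. Psme3ip1 was high in rat 52 (sham, saline throughout) at 8.3445, and Psmg4 was low in rat 36 (sham, L-dopa and saline) at 8.3551.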

How the results depend on the processing

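Of 176 counts of called members over 11 settings, 166 stayed within 1.5 times the reported count. Of 308 single values 295 were counted as unchanged. That count let a value that was not called as reported change its direction. No called value reversed. The 1 call for the lesion became 0 with the array block, within arrays 1 to 37, with no filter, with quantile normalization and with the 3' minus 5' covariate. It became 2 with array weights (Psmb1 and Psmb4) and with the mean of all probe sets of a gene (Psmb4 and Psmd14). Leaving out 1 rat at a time gave 0 to 2; the Psmb4 call was lost without rat 4, 5, 7, 12, 13, 14, 16, 18, 19, 20, 24, 25, 27, 29, 30, 34, 38, 39, 40, 41, 44, 45, 46, 49, 50, 51 or 52, and Psmb1 or Psme4 was added without rat 1, 22 or 23. The 0 calls for the lesion in rats given saline and pramipexole became 1 (Psmb1) with the 3' minus 5' covariate, with array weights and without rat 25 (0 to 1 over the rats left out). The 0 calls for the lesion in undrugged rats became 1 with the mean of all probe sets, Psmd14 at 0.328 (adjusted p = 0.0044 by limma), a mean that holds the probe set which steps with the sample number. Over all probe sets tested, the lesion's 944 calls became 0 with the array block and within arrays 1 to 37, and the 40 for L-dopa became 0 with the block, 4 within arrays 1 to 37, 0 within 38 to 56 and 18 with the 3' minus 5' covariate; the 7 for pramipexole became 0 within either array set. Leaving out 1 rat gave 28 to 62 calls for L-dopa. The cause of the other changes was not tested. No paired analysis was possible because the rats of different groups share no replicate number. Detection calls were not used here, and signal near background limits the dimmest probe set, Psmd14 1386073_at.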
